A study of Homo sapiens with 2 samples.

Results

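The genes examined were the long intergenic non-coding RNA genes of the array that carry a LINC symbol, the name given to such genes when nothing else distinguishes them. They were chosen by symbol alone: every probe set with exactly 1 annotated gene whose symbol is LINC followed by digits. Each probe set combines several short probes against the same transcript. This rule found 457 genes among 14812 named genes (3.09%), measured by 511 probe sets. RefSeq listed all 457 as lncRNA genes under the same symbols.

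LINC transcripts are made by RNA polymerase II and are capped, and most are spliced and polyadenylated, but they carry no long open reading frame. Some act on genes near their own locus, others as scaffolds or decoys for proteins or microRNAs elsewhere in the cell, and for most of them no role has been described. Long non-coding RNAs are on the whole transcribed at lower levels and in fewer cell types than mRNAs.

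RNA came from HT29, an established human colon cancer cell line, transfected with a control siRNA (siControl) or with an siRNA against *REG4* (siREG4). *REG4* encodes a secreted lectin. There was 1 array per group, so no difference has a replicate check and precision is limited by the number of arrays. One label of the siREG4 array gives GATA6 as the siRNA target, but title and source name give REG4, and the title was followed. *REG4* had 0 named probe sets, which leaves the knockdown unchecked on these arrays, and *GATA6* differed by 0.07 on the log2 scale. The study measured *REG4* knockdown by qRT-PCR in HT29 cells given REG4 siRNA. It does not say whether that RNA was the RNA of these arrays. The siRNAs were delivered with Lipofectamine RNAiMAX. The sources used here do not give the time after transfection or which REG4 siRNA was used. Nor do they say which negative control went into siControl. The methods name a Stealth and a Silencer control siRNA, and the REG4 siRNAs are of the Silencer type. An effect of a different control type could not be told apart from that of siREG4.

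Each deposited value is a log value centred per probe set, so that the arrays mirror each other: a probe set at 0.25 in siREG4 stands at -0.25 in siControl. The base was taken as 2. All results below are differences on this log2 scale, siREG4 minus siControl, and the mean was taken where a gene has several probe sets. No signal level is left in the values, so that a silent LINC gene cannot be told from an expressed one that did not differ, and neither HT29 identity nor other cell types could be checked from marker levels. In bulk RNA, fewer cells with a transcript and less transcript per cell cannot be told apart.

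LINC genes differed little between the arrays. The methods of the study set a threshold of 1.4-fold for decreases, and the same size was used here for increases too (0.49 on the log2 scale). Past it, 2 of 457 LINC genes were higher in siREG4 (0.438%) and 0 were lower. Over all named genes, 1.51% were higher and 1.67% lower at that threshold. At a milder threshold of a 25% increase, and its inverse for decreases, 5 LINC genes were higher (1.09%) and 2 lower (0.438%), beside 4.02% and 4.92% of all named genes. Past 2-fold there were 0 LINC genes in either direction, and of all named genes 0.176% were higher and 0.0878% lower. The LINC shares were thus below the background at 1.4-fold and at the milder threshold in both directions, a description of these arrays only.

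The differences of the LINC genes ran from -0.46 to 0.50, with a median of 0.00081 and a mean of 0.0058. Of the 457 genes, 229 were above 0, 207 below 0 and 21 at exactly 0. The middle 50% lay between -0.032 and 0.036, and 394 genes (86.2%) lay within 0.1 of 0. The corresponding share was 61.9% for all named genes.

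**Figure D1:**
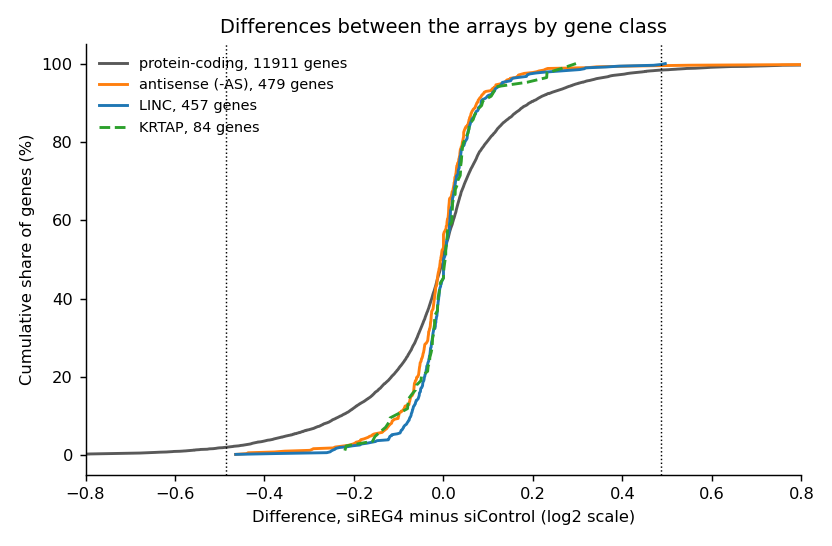
Cumulative share of genes (y axis, %) against the difference between the arrays (x axis, siREG4 minus siControl, log2 scale) for 457 LINC, 479 antisense, 84 *KRTAP* and 11911 protein-coding genes, with dotted lines at 1.4-fold. The LINC curve is steeper than the protein-coding curve and lies close to the *KRTAP* and antisense curves.

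The LINC genes were set beside other gene classes of the array. The SD across genes was 0.092 for LINC genes, 0.12 for 479 antisense RNA genes (symbols ending in -AS and a number), 0.13 for 457 other lncRNA genes and 0.20 for 11911 protein-coding genes. The median absolute differences of these classes were 0.035, 0.039, 0.041 and 0.075 in the same order. The largest antisense difference was 1.19 and the largest of the other lncRNA genes was 1.37, and both count in the SDs. Each was the only gene of its class past 2-fold (0.209% and 0.219%), beside 0 LINC genes and 0.176% higher over all named genes. Nothing is read from that contrast. Past 1.4-fold, 3 antisense genes (0.626%) and 4 other lncRNA genes (0.875%) were higher and 0 were lower, against 2.04% lower and 1.68% higher among protein-coding genes. The 445 pseudogenes had an SD of 0.16, with 0.899% lower and 0.674% higher past 1.4-fold. The 1063 genes of remaining types had an SD of 0.14, with 0.094% lower and 1.13% higher. The 84 keratin-associated protein (*KRTAP*) genes, which encode hair proteins and were picked as a gauge with earlier results known, had an SD of 0.089. Their differences ran from -0.22 to 0.30, and 9 LINC genes lay below and 8 above that range. Of all named genes, at least 4.92% lay below and 4.02% above it, the shares past the milder threshold, which is wider. A range of 84 genes also depends on their number, so it is a rough gauge. All other LINC genes fell inside the range of these hair genes.

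The 2 genes past 1.4-fold were *LINC01002* and *LINC01347*. *LINC01002*, on chromosome 19, has 1 probe set, which stood at -0.25 in siControl and 0.25 in siREG4, a difference of 0.50 (1.41-fold higher). *LINC01347*, on chromosome 1, has 3 probe sets with differences of 0.37, 0.44 and 0.65. Their mean was 0.49, only just past the threshold, and 1 of the 3 probe sets passed it alone. No role of either transcript is described here.

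Next below them came *LINC01963* on chromosome 2, at -0.23 in siControl and 0.23 in siREG4, which is 1.38-fold higher (0.47). *LINC01278*, on the X chromosome, was 1.31-fold higher (0.39), and *LINC01004*, on chromosome 7, was 1.29-fold higher (0.36). *LINC00659*, which has been described as raised in colorectal tumours and as promoting growth of colon cancer cells, was at 0.32. It was followed by *LINC00999* (0.31), *LINC01000* (0.30) and *LINC01743* (0.28). The last of the 10 highest was *LINC00673* (0.25), a transcript known in pancreatic cancer for its part in degrading the phosphatase PTPN11.

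The largest decrease was found for *LINC00294* on chromosome 11. Its probe set stood at 0.23 in siControl and -0.23 in siREG4, a difference of -0.46 (1.38-fold lower), just short of the threshold. *LINC00339*, a neighbour of the *CDC42* region on chromosome 1, was 1.29-fold lower (-0.37). *LINC01133*, which has been described in colorectal cancer as a binding partner of the splicing factor SRSF6, was at -0.26. The other 7 of the 10 lowest lay close together: *LINC00910* (-0.25), *LINC00899* (-0.25), *LINC00674* (-0.25), *LINC00852* (-0.24), *LINC03009* (-0.24), *LINC00163* (-0.23) and *LINC00552* (-0.21). Each of the 10 lowest rested on a single probe set.

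**Figure D2:**
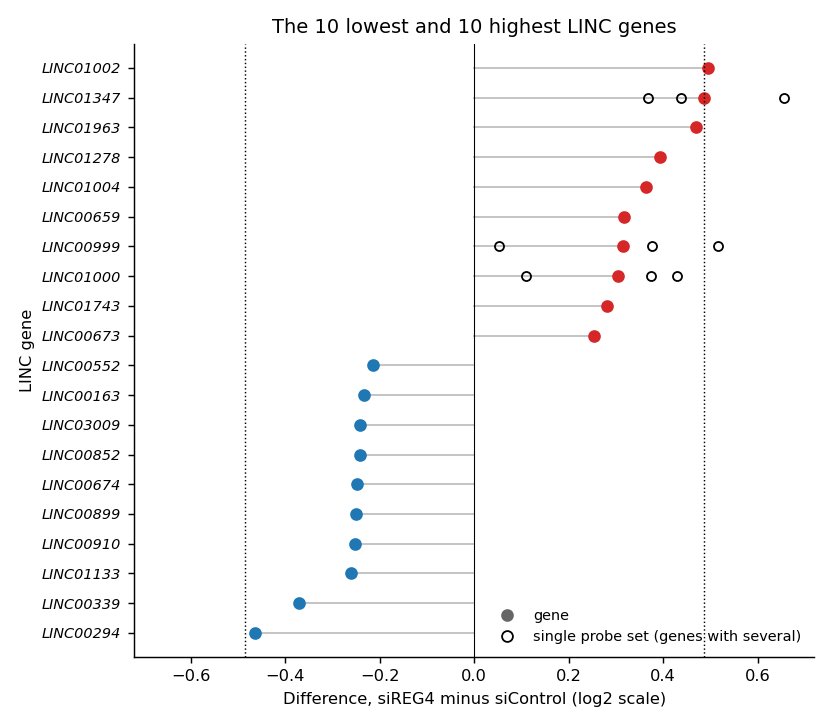
The 10 lowest (blue) and 10 highest (red) LINC genes by difference between the arrays (x axis, siREG4 minus siControl, log2 scale), with open circles for the single probe sets of genes that have several and dotted lines at 1.4-fold. Only *LINC01347* and *LINC01002* reach the right-hand line as genes. The single probe sets of *LINC00999* span 0.05 to 0.52, and the highest of them lies past that line.

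The promoter windows of the leading genes are shown here, since 1 label names GATA6, a factor that binds GATA motifs. The windows are RefSeq sequences of GRCh38.p14, from 250 bases before to 50 bases after the annotated start, written in the direction of transcription. They belong to the 3 highest and 3 lowest LINC genes that have an entry in the promoter table. Capitals mark GATA hexamers, that is GATA preceded by A or T and followed by A or G, on either strand.

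LINC01002, chr19:202160-202459, minus strand: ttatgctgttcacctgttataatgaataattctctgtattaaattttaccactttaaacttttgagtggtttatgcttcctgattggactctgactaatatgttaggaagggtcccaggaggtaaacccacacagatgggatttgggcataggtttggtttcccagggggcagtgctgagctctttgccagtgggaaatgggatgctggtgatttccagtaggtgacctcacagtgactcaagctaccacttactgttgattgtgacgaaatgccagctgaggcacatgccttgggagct

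LINC01278, chrX:63561046-63561345, minus strand: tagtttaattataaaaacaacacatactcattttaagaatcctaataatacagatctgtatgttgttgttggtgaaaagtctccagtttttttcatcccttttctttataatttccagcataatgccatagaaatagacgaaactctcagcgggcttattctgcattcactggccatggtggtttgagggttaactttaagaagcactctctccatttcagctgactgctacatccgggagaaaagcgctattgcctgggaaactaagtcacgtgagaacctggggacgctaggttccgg

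LINC00659, chr20:62776807-62777106, minus strand: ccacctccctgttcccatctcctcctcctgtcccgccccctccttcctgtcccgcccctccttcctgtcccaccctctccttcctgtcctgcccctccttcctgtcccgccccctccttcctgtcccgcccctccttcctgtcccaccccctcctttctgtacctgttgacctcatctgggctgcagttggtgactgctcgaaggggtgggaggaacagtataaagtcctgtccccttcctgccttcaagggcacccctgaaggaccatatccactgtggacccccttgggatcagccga

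LINC00294, chr11:33075900-33076199, plus strand: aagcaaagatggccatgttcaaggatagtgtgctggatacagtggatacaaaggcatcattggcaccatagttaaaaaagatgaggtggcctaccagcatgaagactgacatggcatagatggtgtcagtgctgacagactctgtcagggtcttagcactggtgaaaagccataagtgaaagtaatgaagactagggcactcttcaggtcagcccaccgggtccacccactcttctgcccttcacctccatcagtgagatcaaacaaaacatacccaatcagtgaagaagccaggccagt

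LINC00339, chr1:22024941-22025240, plus strand: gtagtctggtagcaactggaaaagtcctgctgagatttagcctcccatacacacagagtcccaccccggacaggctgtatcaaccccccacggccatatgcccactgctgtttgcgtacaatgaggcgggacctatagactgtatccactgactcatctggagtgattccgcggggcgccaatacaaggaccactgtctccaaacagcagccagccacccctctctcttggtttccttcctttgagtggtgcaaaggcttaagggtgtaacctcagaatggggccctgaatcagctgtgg

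LINC01133, chr1:159960974-159961273, plus strand: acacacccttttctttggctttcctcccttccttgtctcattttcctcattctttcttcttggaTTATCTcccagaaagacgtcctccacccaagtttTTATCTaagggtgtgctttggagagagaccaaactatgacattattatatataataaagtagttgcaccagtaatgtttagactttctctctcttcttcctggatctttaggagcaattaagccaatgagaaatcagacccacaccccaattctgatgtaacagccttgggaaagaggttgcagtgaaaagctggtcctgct

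Of these 6 windows only that of *LINC01133* held GATA hexamers, 2 of them and both on the opposite strand. The windows also differ in composition. That of *LINC00659* holds repeated runs of C and T, whereas those of *LINC01002* and *LINC00294* hold 1 CG dinucleotide each and those of *LINC00339* and *LINC01278* hold 7 each.

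Of the 457 LINC genes, 325 had a promoter entry. At least 1 GATA hexamer was found in 125 of the 325 windows (38.5%), beside 25.5% of all 27305 windows of that length and 19.7% of the 15843 protein-coding ones. A match is only a string of letters, and LINC windows are also poorer in CG dinucleotides, with a median of 5 against 14 over all windows and 22 over protein-coding ones. Over all 1578 LINC windows in the table, measured here or not, the share was 35.5%. The 125 LINC genes with a hexamer had a median difference of 0.0027 and ran from -0.26 to 0.23. The 200 without one had a median of 0.0 and ran from -0.46 to 0.50. All 4 of the 10 highest genes with an entry lacked a hexamer, and 3 of the 9 lowest with an entry had one, *LINC01133*, *LINC00910* and *LINC00852*.

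CG-rich starts are common among genes that are transcribed in many tissues. The 100 LINC genes whose window held 10 or more CG dinucleotides had a median absolute difference of 0.038, and the 225 with fewer had 0.033. Genes at the extremes included CG-poor ones (*LINC01002*, *LINC00294*) and CG-rich ones such as *LINC00899* with 48 and *LINC00674* with 30.

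**Figure D3:**
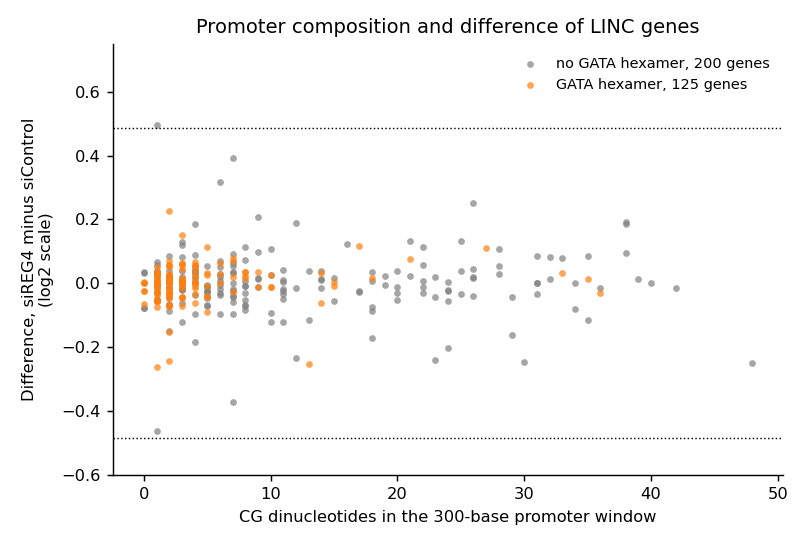
Difference between the arrays (y axis, siREG4 minus siControl, log2 scale) against the number of CG dinucleotides in the promoter window (x axis, count in 300 bases) for 325 LINC genes, in orange where the window holds a GATA hexamer (125 genes) and in grey where it does not (200 genes), with dotted lines at 1.4-fold. Genes with and without a hexamer both lie around 0, and the highest and lowest points are grey.

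Probe sets of the same gene give the only repeat measurements in these data, and they share the arrays. Of the 457 LINC genes, 424 had 1 probe set and 33 had several, 87 probe sets in all. The SD between probe sets of 1 gene was 0.12, beside an SD of 0.092 across all LINC genes. It rested on few genes, being 0.095 without *LINC01061* and 0.073 without *LINC01061*, *LINC00999*, *LINC01000* and *LINC01347*. In 18 of the 33 genes the probe sets lay on both sides of 0. *LINC01023*, for example, had probe sets at -0.21 and 0.13, *LINC00265* at -0.05 and 0.28, and *LINC01144* at -0.15 and 0.09.

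In 8 genes there were 3 or more probe sets. All 8 had a mean above 0, though 4 of the means were close to 0, and 3 were among the 10 highest LINC genes. In *LINC01000* the probe sets stood at 0.11, 0.38 and 0.43, in *LINC00999* at 0.05, 0.38 and 0.52, and in *LINC01347* all 3 were above 0 as given above. *LINC01061*, next below the 10 highest, had 7 probe sets, of which 6 lay between 0.08 and 0.44 and 1 at -0.27 (mean 0.23). Several probe sets under 1 name can read near-identical copies of a gene, so which copy gave the signal is uncertain for these genes. The remaining 4, *LINC00173*, *LINC01015*, *LINC01343* and *LINC01623*, had means between 0.0034 and 0.037.

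Since some LINC transcripts act on genes near their own locus, each was set beside the protein-coding gene nearest to it in the RefSeq table of GRCh38.p14, which was used for gene order only. No limit was set on the distance, so a nearest coding gene may lie far away, and the pairs were not split by distance. The nearest protein-coding gene was measured for 278 LINC genes, and these pairs held 250 different coding genes. Across the 278 pairs Pearson's r was 0.12 and Spearman's rho 0.037, given as a description, since pairs come from the same arrays and some share a coding gene. In 135 pairs both genes differed in the same direction and in 119 in opposite directions, and 24 held a value of 0. The median absolute difference was 0.033 for the LINC genes and 0.069 for their neighbours, and in 195 pairs the coding gene differed more.

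In 13 of the 278 pairs (4.68%) the coding gene passed 1.4-fold, beside 2.04% lower and 1.68% higher over all protein-coding genes. The LINC gene passed in 0 of the 13, which says little about neighbours, since 0.438% of all LINC genes passed. In those pairs 8 coding genes were higher and 5 lower (counting *KLF12* in each of its 2 pairs), and the LINC gene shared the direction in 7. The LINC differences in them ran from -0.12 to 0.32. *KLF12*, a zinc finger transcription factor, was at 0.99, while *LINC00347* and *LINC00381*, for which it is the nearest coding gene, were at -0.05 and 0.05. *SCCPDH* was at -1.01 and *LINC01341* beside it at -0.12. *BCL9*, a coactivator of beta-catenin, was at 0.72 and *LINC00624* at 0.05.

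On the lower side, *PDZK1IP1*, which encodes a small membrane protein, was at -0.79 and *LINC00853* at 0.04. *FGF9*, a fibroblast growth factor, was at -0.58 and *LINC00424* at 0.03. *TMPO*, a protein of the nuclear lamina, was at -0.54 and *LINC02453* at 0.11, and *MIS18A*, a centromere assembly factor, was at -0.54 and *LINC00159* at -0.0026. None of these 4 LINC genes followed its neighbour beyond 0.12 in either direction.

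*LINC00659* (0.32) had the largest LINC difference in these 13 pairs, beside *NTSR1* (0.63), which encodes the high-affinity neurotensin receptor. *LINC00536* (0.17) lay next to *TRPS1* (0.61), a zinc finger repressor that binds GATA sites. In the other pairs, *ZSCAN2* (0.68), *TINAGL1* (0.57) and the adaptor gene *NCK2* (0.53) stood beside *LINC00933* (-0.04), *LINC01226* (0.01) and *LINC02946* (-0.01).

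**Figure D4:**
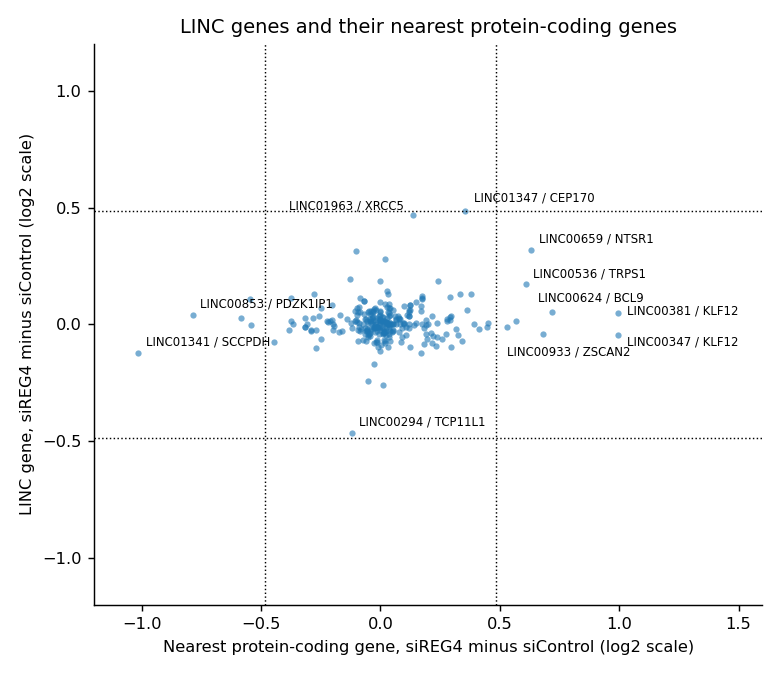
Difference of each LINC gene (y axis) against that of its nearest protein-coding gene (x axis), both siREG4 minus siControl on the log2 scale, for 278 pairs, with dotted lines at 1.4-fold and labels at LINC differences beyond 0.45 or neighbour differences beyond 0.6 in either direction. The points spread along the x axis from -1.01 to 0.99 and stay between -0.46 and 0.49 on the y axis.

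Among the 10 highest and 10 lowest LINC genes, the nearest measured coding gene differed in the same direction in 10 and in the opposite direction in 10. A nearer or overlapping coding gene was not measured in the pairs below with *CALU*, *SOX9*, *PPARA*, *TATDN2*, *HSPG2*, *AMER1*, *DHX8*, *AMZ2* and *PLPP2*. On the same side, *CEP170*, a centrosomal protein gene next to *LINC01347* (0.49), was at 0.35, and *XRCC5*, which encodes the Ku80 subunit of DNA end joining, was at 0.14 beside *LINC01963* (0.47). *TCP11L1*, next to *LINC00294* (-0.46), was at -0.12. *PPARA* was at -0.31 with *LINC00899* at -0.25, and *TATDN2* at -0.31 with *LINC00852* at -0.24. *CALU*, which encodes a calcium-binding protein of the secretory pathway, was at 1.08 with *LINC01000* at 0.30, and *SOX9*, a transcription factor of crypt progenitors, was at 0.20 with *LINC00673* at 0.25.

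On the opposite side, *HSPG2*, the gene of the basement membrane protein perlecan, was at 0.25 with *LINC00339* at -0.37. *AMER1*, a regulator of Wnt signalling, was at -0.23 with *LINC01278* at 0.39. *DHX8*, an RNA helicase of splicing, was at 0.24 with *LINC00910* at -0.25, and *AMZ2* was at 0.18 with *LINC00674* at -0.25. *ZNF37A* was at -0.10 beside *LINC00999* (0.31). *LINC01002* (0.50) overlaps a predicted coding gene that was not measured, and *PLPP2*, the nearest measured one, was at -0.11. The leading LINC genes thus showed no common direction with their neighbours.

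Not every LINC gene is intergenic in the current annotation. By the RefSeq annotation, 31 of the 457 (6.78%) overlap a protein-coding gene, among them *LINC01002*, *LINC01133*, *LINC00852* and *LINC03009*. The overlapping genes had a median absolute difference of 0.048 and the others 0.034. In 8 LINC genes with a promoter entry the start lies within 1000 bases of the start of a protein-coding gene on the opposite strand. Of these, *LINC01124* was at 0.19 and its partner *SP5*, a Wnt-responsive transcription factor, at 0.24. *LINC01134* was at 0.01 with *C1orf174* at -0.38, and *LINC00685* was at 0.08 with *GTPBP6* at -0.20. *LINC00205*, *LINC00235* and *LINC02603* lay between -0.08 and -0.01, with their partners *POFUT2*, *CAPN15* and *ZNF169* between 0.02 and 0.06. The partners of *LINC00899* (-0.25) and *LINC01547* (-0.01) were not measured.

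A list of 10 genes with described roles, LINC symbols or successors of them, had 8 measured members, of which 0 passed 1.4-fold or the milder threshold in either direction (median 0.01). With 8 members, 0 is a count that the shares over all named genes (1.51% higher and 1.67% lower at 1.4-fold) would give too, so nothing is read from it. After *LINC01133*, the lowest was *LINC00261* (-0.08), an RNA of the endoderm encoded beside *FOXA2*. *LINC00473*, a target of CREB coactivators, was at -0.02, *LINC00668* at -0.01 and *LINC00460* at 0.04. *LINC00511* was at 0.08 and *NORAD*, formerly *LINC00657*, which binds Pumilio proteins, at 0.11. *LINC00665* was the highest of the list at 0.19 (1.14-fold higher). None of 5 listed genes that moved from LINC symbols to names for small proteins had a named probe set (0 measured).

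Many well-studied RNAs have left the LINC series as they gained names of their own. RefSeq lists a LINC symbol as a synonym for 115 measured genes with another current name. Some of these, such as *FGF13* and *STARD13*, are protein-coding, so the set is not made up of renamed RNAs alone. Of these, 0 passed 1.4-fold in either direction, beside 1.51% higher and 1.67% lower over all named genes, and at the milder threshold 1 was higher and 1 lower, beside 4.02% and 4.92%. For 3 of the 115 a listed synonym is also the current symbol of 1 of the 457: *KMT2E-AS1* (-0.05) lists *LINC01004*, which itself stood at 0.36, *ARGLU1-DT* (-0.01) lists *LINC00443* and *PANTR1* (0.01) lists *LINC01114*. Of the 115, 78.3% lay within 0.1 of 0. The highest was *UCA1* (0.36), an RNA named for urothelial cancer. The lowest were *GRAMD1B* (-0.43), a protein-coding gene of sterol transfer with a LINC synonym, and *SNHG5* (-0.32), a snoRNA host. *CHASERR*, which lies next to and restrains *CHD2*, was at 0.26.

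A further list of 28 long non-coding RNAs with other current names had 17 measured members, with a median of 0.0051 and a mean of 0.11. It is not separate from the synonym set, since 7 of the 17 (*SNHG5*, *SNHG8*, *MIR17HG*, *CRNDE*, *MEG3*, *MALAT1* and *UCA1*) belong to both, and it was drawn up with earlier results known. Of the 17, 2 were higher past 1.4-fold and 0 lower, beside 1.51% and 1.67% of all named genes. *MIR31HG*, the host of miR-31, was 2.59-fold higher (1.37), and *KCNQ1OT1*, an imprinted antisense RNA, was at 0.59. The 2 lowest, *SNHG5* and *SNHG8* (-0.27), host small nucleolar RNAs. *MALAT1*, a nuclear speckle RNA, was at 0.11, within the range of the LINC genes.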

How the data were processed

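Total RNA of HT29 cells was labelled by the authors with the GeneChip WT PLUS kit, hybridized to Affymetrix Human Gene 2.0 ST arrays and evaluated in GeneSpring, per the methods of the study. The authors deposited 1 table of log2 values for 44629 probe sets and 2 arrays, centred per probe set (columns sum to 0 within 1e-06). The log base was taken as 2. The sources used here do not give background correction, summarization or normalization between arrays.

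A platform annotation named 15835 probe sets with 1 gene each, and 28794 were unnamed. Differences were averaged per gene over its probe sets. With 1 array per group no test, SD or standard error between arrays was computed. Genes named were the 10 lowest and 10 highest LINC genes, genes past 1.4-fold, genes of fixed lists, neighbours, and examples of discordant probe sets, and others, such as *CALU*, *SOX9* and *CHASERR*, were chosen after their values were seen. The members and lists were chosen with earlier results of these data known. The counting was tested on simulated data with 200 genes set well past the threshold, which does not cover values near it. Gene types, order and promoter sequences came from RefSeq tables. Alternatives were other thresholds, quantile normalization, median centring, other handling of probe sets and other symbol rules. Python 3.11.15, numpy 2.4.6, pandas 2.3.3 and matplotlib 3.10.9 were used.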

Additional observations from a re-analysis of the deposited data

How the results depend on the processing

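With 1 array per group, no alternative could leave out a replicate, and no depth is given for arrays, whose number limits precision. No paired analysis was possible because each group has 1 array. The count of LINC genes past 1.4-fold stayed at 0 lower and 2 higher with quantile normalization, median centring and probe sets at 0 left out. It was also unchanged with current RefSeq symbols and with genes with a LINC synonym added, but neither could change it. All 457 symbols are the same in RefSeq, and 0 of the 115 synonym genes passed 1.4-fold. Since the values are already centred per probe set, the unchanged counts are little evidence of robustness. Counting each probe set on its own gave 0 lower and 3 higher, since 1 probe set each of *LINC01002*, *LINC01347* and *LINC00999* passed. The higher count fell to 1 with the first probe set of a gene and to 1 when genes with several probe sets were left out, which both lose *LINC01347*. A 2-fold threshold left 0 higher and 0 lower and the milder threshold (a 25% increase or its inverse) gave 5 higher and 2 lower, as a stricter and a milder threshold must. The median was 0.0011 with quantile normalization and 0.0048 with probe sets at 0 left out, and the mean in its place was 0.0058. With current symbols, which name the same genes, it was necessarily 0.00081 again. Pearson's r of LINC genes and neighbours was 0.078 over 457 pairs with the nearest measured coding gene and 0.13 with quantile normalization, and the cause was not tested. Quantile normalization moved no LINC gene by more than 0.011. The first probe set was compared with the mean in 21 genes, the 18 with probe sets on both sides of 0 and the 3 of the 10 highest with several. Many of these 21 are not named above. The first probe set moved 4 of them by more than 0.12, the SD between probe sets of a gene. The alternatives with LINC synonyms and with 1 probe set per gene were chosen after seeing the data.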

Other observations

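Values of exactly 0 in both arrays were found in 26 of 511 LINC probe sets (5.09%), in 3.45% of all named probe sets and in 4.12% of the whole table, and 21 LINC genes had a difference of 0. In 3 LINC genes some probe sets carried identical values other than 0. *LINC01015* had 4 of its 8 probe sets at 0.0090, *LINC01623* had 2 of 7 at 0.028, and both probe sets of *LINC00685* stood at 0.083.

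By chromosome, the median difference of LINC genes stayed close to 0. Chromosome 1 held the most, 46, with a median of 0.01. Among chromosomes with 10 or more LINC genes, the lowest median was that of chromosome 15 (-0.03, 13 genes) and the highest that of chromosome 19 (0.04, 11 genes).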
